A study of Homo sapiens with 12 samples.

Results

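Mesenchymal and neural markers of glioma are genes used to describe the state of glioblastoma cells. The 9 markers described here, CD44, VIM, NES, SOX2, SOX9, CHI3L1, PDPN, MCAM and GFAP, were chosen by name and were 9 of 60107 gene identifiers in the count table. RNA was measured by 3′ sequencing in 12 libraries in 4 groups, with 3 replicate libraries in each. U251 is an established human glioblastoma cell line, and the labels name 2 versions of it, U251P and U251T, without saying what the last letters stand for. Carmofur, a derivative of 5-fluorouracil that inhibits the acid ceramidase ASAH1, was compared with its vehicle, DMSO.

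The 4 groups were U251P with vehicle, U251P with carmofur, U251T with vehicle and U251T with carmofur. All of them were grown in medium with 10% fetal bovine serum, B27-equivalent supplement and growth factors. Per the labels, cells were kept without serum for 16 h and then held for 24 h in full medium with DMSO or carmofur. The study's legend for these RNA data names U251, and neither U251P nor U251T. It gives a carmofur dose of 5 µM and places the drug in the starvation period as well, which the labels do not state. The study's methods say that all its experiments had biological triplicates, while the labels do not say whether these libraries came from separate cultures, so p-values measure the spread between these libraries, which may in part be technical.

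Glioblastoma cells can take on states that resemble mesenchymal cells, astrocytes or neural progenitors. CD44, VIM and CHI3L1 are common markers of the mesenchymal state, NES and SOX2 of neural stem and progenitor cells, and GFAP of astrocytes. A given tumor or culture can hold several of these states, and in bulk RNA fewer cells of a state and less RNA per cell cannot be told apart.

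The libraries labelled U251T stood apart from those labelled U251P before any marker was compared. Total counts were 5064504, 3295045 and 5263645 in U251P vehicle and 6350873, 5952838 and 4144841 in U251P carmofur. Totals were 1300727, 2817379 and 566061 in U251T vehicle and 969763, 1078340 and 383633 in U251T carmofur. Every U251T library was therefore shallower than every U251P library, and a low count there allows a higher level than the same count in U251P.

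Genes with at least 1 count numbered 16529 to 18620 in the 6 U251P libraries and 11563 to 14304 in the 6 U251T libraries. Mitochondrial genes took 19.5% to 26.2% of counts in U251P and 0.354% to 0.881% in U251T. Genes annotated as pseudogenes took 0.272% to 0.307% in U251P and 10.8% to 12.4% in U251T. The 2 sets did not overlap in any of these measures.

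Genes that nearly all human cells express also differed. B2M, the light chain of MHC class I, had 1 to 7 counts in each U251T library, against a mean of 1676 ± 81.0 CPM (counts per 1000000 counts of the library; SD, n = 3) in U251P vehicle. GAPDH, a glycolytic enzyme, stood at 175 ± 37.8 CPM in U251T vehicle and 3365 ± 367 CPM in U251P vehicle. Of 15 reference genes, 11 were lower and 2 higher in U251T vehicle (1 higher with RLE scaling, 10 lower with total counts only), with a median log2 fold change of -1.99 against -0.33 over all genes tested. A low count in the libraries labelled U251T can therefore not be read as lack of expression. Whether these libraries hold RNA of the same origin as U251P, species included, was not tested, so each line difference below is one between libraries with these labels, and the part of these differences in the marker results was not tested.

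Markers of other cell types moved with the line too. The 6 fibroblast markers summed to 18.8 to 23.5 CPM in U251P and 1957 to 2799 CPM in U251T. The most abundant in U251T was COL1A1, a fibrillar collagen chain, at 1440 ± 145 CPM in U251T vehicle and 5.25 ± 0.771 CPM in U251P vehicle, and LUM was at 0 in both lines. In U251P the most abundant was COL1A2, at 14.7 ± 2.18 CPM over 6 libraries. Their part in the marker results was not tested.

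For the other cell types, 4 of 8 microglia and macrophage markers had a count in each line, with AIF1, ITGAM, CX3CR1 and TYROBP at 0 in both and sums of 1.45 to 3.70 CPM in U251P and 8.52 to 21.2 CPM in U251T. The most abundant was CD68. The 6 endothelial markers summed to at most 0.987 CPM in U251P and 1.85 CPM in U251T, with VWF and CLDN5 at 0 in both. The 7 neuron markers summed to 77.6 to 92.2 CPM in U251P and 1.77 to 54.7 CPM in U251T, led by MAP2. The 7 oligodendrocyte markers summed to 58.0 to 77.6 CPM in U251P and 37.3 to 177 CPM in U251T, led by CNP, with MOG and SOX10 at 0 in both.

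**Figure D1:**
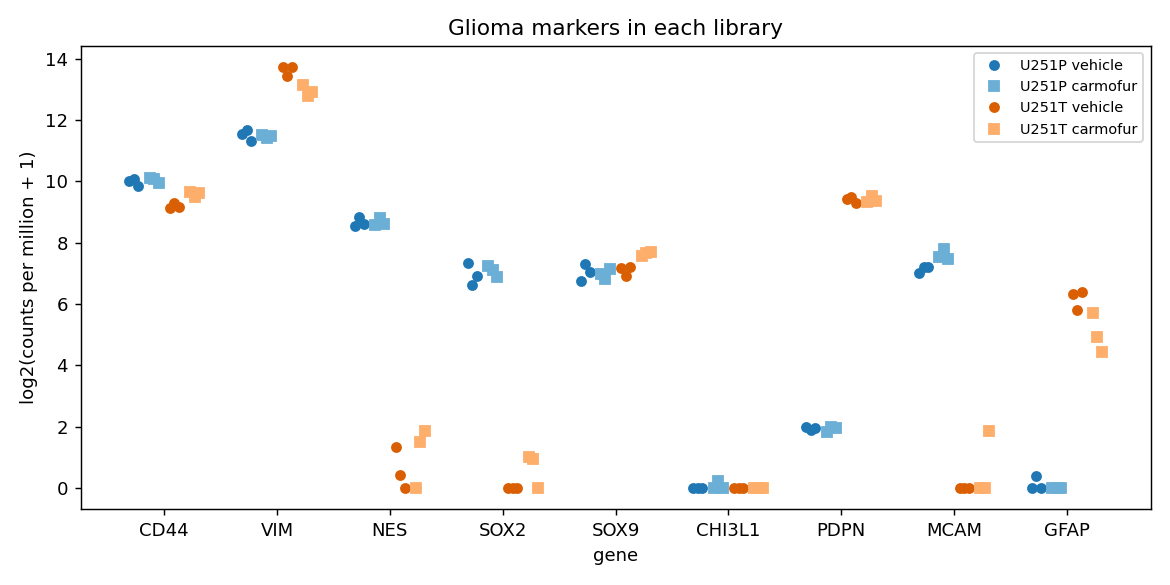
Level of each marker in each library, as log2(CPM + 1), with 3 points per group; blue marks U251P and orange U251T, circles vehicle and squares carmofur. NES, SOX2 and MCAM are near 0 in U251T, GFAP is near 0 and PDPN low in U251P, and CHI3L1 near 0 in both.

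The first question was how the markers differ between the lines in vehicle. In edgeR's quasi-likelihood test, 3 of the 8 markers that passed the filter on low counts were higher in U251T and 4 were lower at an adjusted p under 0.05. Over all 12047 genes tested, 39.3% were higher and 47.6% lower, so most genes differed between the lines and the markers' count was near this background. All libraries of one line were above all of the other for 86.8% of genes, and for 86.4% in carmofur, where chance gives 10%. A marker that passed the filter only through the line where it was high had to differ. This applied to NES, SOX2, MCAM, GFAP and PDPN. The median of all genes lay at a log2 fold change of -0.33, and between -0.45 and -0.30 under the other scalings. Values relative to the median are therefore also given for VIM and CD44.

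VIM, the intermediate filament protein of mesenchymal cells, lies at chr10:17228259-17237593 (GRCh38, plus strand; ENSG00000026025). It was at 2950, 3252 and 2516 CPM in U251P vehicle and at 13534, 11009 and 13426 CPM in U251T vehicle. Every U251T library was above every U251P library. The log2 fold change was 2.08 ± 0.18 (SE, adjusted p = 7.46e-12, edgeR), and 2.41 relative to the median of all genes.

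PDPN, a mucin-like membrane glycoprotein that binds the platelet receptor CLEC-2, lies at chr1:13583465-13617957 (plus strand; ENSG00000162493). It was at 2.96, 2.73 and 2.85 CPM in U251P vehicle, from 15, 9 and 15 counts, and at 691, 714 and 629 CPM in U251T vehicle. The lines were far apart and each was narrow within itself. The log2 fold change was 7.82 ± 0.21 (adjusted p = 3.23e-23, edgeR).

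GFAP, the intermediate filament protein of astrocytes, lies at chr17:44903161-44916937 (minus strand; ENSG00000131095). It had 102, 154 and 47 counts in U251T vehicle, or 78.4, 54.7 and 83.0 CPM, and 0, 1 and 0 counts in U251P vehicle. It was thus read in all U251T libraries and almost none of the U251P libraries. The ratio of pooled counts was 881-fold, with an exact 95% interval of 157 to 34920 that covers counting error only (adjusted p = 6.20e-17, edgeR).

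CD44, the receptor for hyaluronan, lies at chr11:35138870-35232402 (plus strand; ENSG00000026508). It was at 1031, 1084 and 917 CPM in U251P vehicle and 554, 628 and 578 CPM in U251T vehicle. The groups did not overlap. CD44 was lower in U251T by a log2 fold change of -0.82 ± 0.14 (adjusted p = 3.87e-06, edgeR), or -0.49 relative to the median of all genes. With at least 10 counts in every library, where the median of all genes was 0.01, CD44 was -1.455 and VIM 1.44. That CD44 value was the lowest of all alternatives. With no filter on low counts the median of all genes was -1.54, so relative to it CD44 was higher in U251T. That fit tested 25294 genes against 12047 in the main fit, and the genes it added had counts too low for the filter.

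NES, an intermediate filament protein of neural progenitors, lies at chr1:156668763-156677397 (minus strand; ENSG00000132688). It was at 376, 459 and 390 CPM in U251P vehicle and had 2, 1 and 0 counts in U251T vehicle. Its pooled ratio was 627-fold higher in U251P, with an exact 95% interval of 214 to 3039 (adjusted p = 3.24e-21, edgeR). All U251T libraries were at or near 0.

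SOX2, a transcription factor of neural stem cells, lies at chr3:181711924-181714436 (plus strand; ENSG00000181449). It was at 161, 97.7 and 121 CPM in U251P vehicle and at 0 counts in all 3 U251T vehicle libraries. Against a floor of 3 counts over the U251T group it was at least 203-fold higher in U251P (adjusted p = 3.37e-16, edgeR). The gene lies within SOX2-OT on the same strand, which had 1551 counts over the U251P libraries and 0 over the U251T libraries, so the value is uncertain.

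MCAM, an adhesion molecule of the immunoglobulin family, lies at chr11:119308529-119321521 (minus strand; ENSG00000076706). It was at 128, 146 and 146 CPM in U251P vehicle and at 0 counts in all 3 U251T vehicle libraries. It was at least 218-fold higher in U251P, by the same floor (adjusted p = 8.93e-18, edgeR). CBL overlaps it on the opposite strand, with 2192 counts over U251P and 364 over U251T.

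SOX9, a transcription factor of glial and cartilage cells, lies at chr17:72121020-72126420 (plus strand; ENSG00000125398). It was at 108, 157 and 132 CPM in U251P vehicle and 144, 119 and 148 CPM in U251T vehicle. The groups overlapped, and the log2 fold change of SOX9 was -0.01 ± 0.15 (adjusted p = 0.959, edgeR), above the median of all genes at -0.33. Over the alternatives it ranged from -0.65 to 0.05 with an adjusted p from 0.000861 to 0.959, and 2 of 15 called it lower, so SOX9 is not shown to be equal between the lines. CHI3L1, a secreted chitinase-like glycoprotein at chr1:203178931-203186749 (minus strand; ENSG00000133048), had 1 count in the 12 libraries and was not tested.

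VIM-AS1, CD44-AS1 and SOX9-AS1 overlap their partners on the opposite strand, with 24, 0 and 26 counts over U251P and 0, 0 and 1 over U251T. An intronic transcript on the strand of CD44, AL133330.1, had 278 counts over U251P and 0 over U251T. Whether the counting used strand is not given in the sources used here, so reads of these genes and the markers may not be told apart.

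Of the 9 markers, 7 had an entry among the RefSeq promoters (GRCh38.p14). The 100 bases before a start are shown for VIM and PDPN, which were higher in U251T, and for NES and MCAM, which were at or near 0 there, since these windows overlap no annotated exon of their gene. Those of PDPN, at the last of its 3 listed starts, and of MCAM lie inside the interval given for the gene. Capitals mark the GC box (GGGCGG), the CCAAT box (spelled as its name), the TATA box (TATAAA), the cyclic AMP response element or CRE (TGACGTCA), the E-box (CACGTG) and the AP-1 motif (TGAGTCA), which were chosen after the values were known and searched on both strands. The windows are chr10:17228141-17228240 (plus strand), chr1:13585360-13585459 (plus strand), chr1:156677408-156677507 (minus strand) and chr11:119317131-119317230 (minus strand).
VIM: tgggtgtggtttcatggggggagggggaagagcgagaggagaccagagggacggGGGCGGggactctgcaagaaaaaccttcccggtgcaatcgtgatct
PDPN: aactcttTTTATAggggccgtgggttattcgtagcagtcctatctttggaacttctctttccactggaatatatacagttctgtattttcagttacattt
NES: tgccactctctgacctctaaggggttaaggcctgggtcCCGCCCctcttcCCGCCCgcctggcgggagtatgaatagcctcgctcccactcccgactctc
MCAM: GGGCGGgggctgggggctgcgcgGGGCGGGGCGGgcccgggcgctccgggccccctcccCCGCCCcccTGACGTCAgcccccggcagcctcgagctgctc

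The VIM window held 1 GC box, the PDPN window none but 1 TATA box (the windows of its other 2 starts, which overlap exons, each held 1 GC box and no TATA box), the NES window 2 and the MCAM window 4, of which 2 share a base, together with 1 CRE. Of 35116 promoter windows of this length, 31.3% held a GC box, 1.17% a CRE, 18.1% a CCAAT box, 4.99% a TATA box, 3.43% an E-box and 1.94% an AP-1 motif. GC content was 61% for VIM, 37% for PDPN, 65% for NES and 87% for MCAM. The GC box was thus in windows of markers that were higher and of markers that were lower in U251T.

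The same comparison in carmofur used libraries that the vehicle comparison did not. All 8 markers tested passed the threshold, 4 higher and 4 lower in U251T, where 36.5% of 11667 genes were higher and 49.7% lower. The median of all genes lay at -0.56, and at -0.31 when total counts alone were used.

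VIM was at 2916, 2699 and 2827 CPM in U251P carmofur and 9016, 7046 and 7768 CPM in U251T carmofur. The lines stayed apart, with a log2 fold change of 1.23 ± 0.18 (adjusted p = 1.32e-09, edgeR), or 1.79 relative to the median. CD44 was at 1104, 1082 and 995 CPM in U251P carmofur and 805, 723 and 792 CPM in U251T carmofur. It was lower in all U251T libraries, by -0.72 ± 0.15 on the log2 scale (adjusted p = 1.39e-05, edgeR) but by -0.16 relative to the median. When a library was left out, CD44 lay between -0.78 and -0.67. The median of all genes was -0.89 without U251T carmofur replicate 1 and -0.85 without U251T carmofur replicate 2. In those fits CD44 was therefore higher in U251T relative to the median. With at least 10 counts in every library, where the median of all genes was -0.02, VIM was 0.57 and CD44 -1.38.

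SOX9 was at 124, 112 and 139 CPM in U251P carmofur and 188, 201 and 209 CPM in U251T carmofur. Every U251T library was higher, with a log2 fold change of 0.41 ± 0.16 (adjusted p = 0.0121, edgeR). With at least 10 counts required in every library it was -0.25, and over the alternatives the adjusted p ranged from 7.04e-05 to 0.229. It was called under 11 of 15 alternatives. The call was lost with no filter on low counts (adjusted p = 0.229), with at least 10 counts in every library (0.0879), without U251P carmofur replicate 2 (adjusted p = 0.063) and without U251T carmofur replicate 2 (adjusted p = 0.0561).

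The markers low or near 0 in one line kept that pattern in carmofur. PDPN was read in every library, at 2.52, 3.02 and 2.90 CPM in U251P and 637, 728 and 657 CPM in U251T. GFAP had no count in U251P and 50, 32 and 8 counts in U251T, at least 203-fold higher by the floor of 3 counts over the group. NES had 0, 2 and 1 counts in U251T, and its pooled ratio was 328-fold higher in U251P (exact 95% interval 112 to 1593).

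SOX2 had 1, 1 and 0 counts in U251T carmofur and 960, 824 and 490 in U251P carmofur, a pooled ratio of 168-fold (exact 95% interval 46.5 to 1389). MCAM had 0, 0 and 1 counts in U251T and 1172, 1328 and 734 in U251P, a pooled ratio of 478-fold (exact 95% interval 85.8 to 18890). Both were therefore at or near 0 in U251T under either treatment.

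Other genes of these states and pathways were also compared in vehicle, where 39.3% of all genes tested were higher and 47.6% lower, so a list with shares near these does not stand out. The lists leave out the 9 markers. As with the markers, a listed gene that passed the filter only through the line where it was high had to differ. Of the 26 genes in the mesenchymal-like list 24 could be tested, and 7 of those were higher in U251T and 15 lower (median log2 fold change -1.25; 6 and 16 with RLE scaling, 6 and 15 with upper-quartile scaling). FN1, the matrix protein fibronectin, was at 515 ± 148 CPM in U251T and 42.2 ± 19.0 CPM in U251P (n = 3 each). PLAUR, the urokinase receptor, was at 1.95 ± 1.79 and 329 ± 18.3 CPM, and SPP1, osteopontin, at 0 and 291 ± 95.6 CPM.

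Among 17 mesenchymal transcription factors that passed the filter, 8 rose above U251P and 6 lay below it (median 0.05, which turned to -0.02 with upper-quartile and -0.07 with RLE scaling). In carmofur 7 were higher and 8 lower (median 0.29). TWIST1, a factor of epithelial-mesenchymal transition, was at 310 ± 36.4 CPM in U251T and 9.73 ± 0.641 CPM in U251P. SNAI2, another such factor, was at 69.9 ± 3.57 and 0.630 ± 0.386 CPM, while WWTR1, a coactivator of the Hippo pathway, was at 53.8 ± 10.8 and 283 ± 18.5 CPM.

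Of 11 astrocyte-like genes tested, of 21 in the list, 4 were higher and 5 lower (median -0.10; 3 higher with RLE scaling, 5 with total counts only). In carmofur 4 were higher and 6 lower (median -0.94). NFIX, a nuclear factor of glial development, was at 1034 ± 20.7 CPM in U251T and 41.9 ± 8.17 CPM in U251P. AQP4 and BCAN were at 0 in both lines, and S100B, MLC1 and PTPRZ1 were at 0 in U251T.

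In the neural stem and progenitor list 10 genes passed the filter, 2 of them higher and 8 lower (median -3.04, or -2.69 with genes at 0 set to their bound). PAX6, a transcription factor of the developing brain, was at 108 ± 22.0 CPM in U251T and 20.7 ± 3.56 CPM in U251P. POU3F2, a neural transcription factor, was at 0 in U251T and 85.0 ± 5.44 CPM in U251P. All 7 SOX genes tested other than the markers were lower (median -8.11, or -4.28 with bounds), among them SOX3 at 0 in U251T and 158 ± 25.7 CPM in U251P. SOX3, SOX5 and SOX21 had 0 counts in U251T vehicle and passed the filter only through U251P. So did SOX11, which is in both lists, with 2 counts over U251T vehicle and 1733 over U251P vehicle. Their direction was therefore fixed in advance.

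Of 10 intermediate filament genes tested, 2 were higher and 8 lower (median -5.73, or -5.57 with bounds; 1 higher with RLE scaling). In carmofur 0 were higher and 9 lower (median -4.84). KRT81, a hair keratin, had 2 counts over U251T vehicle and 29854 over U251P vehicle. LMNA, a nuclear lamin, was at 644 ± 93.2 CPM in U251T and 454 ± 79.9 CPM in U251P.

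Of 16 CD44 ligands and partners tested, 7 were higher and 8 lower (median -0.07), and in carmofur 6 were higher and 9 lower (median -1.33). HAS2, which makes hyaluronan, was at 269 ± 17.6 CPM in U251T and 0.623 ± 0.488 CPM in U251P. Of 11 partners of MCAM and PDPN tested, 5 were higher and 5 lower (median -0.21), with WNT5A, a ligand of MCAM, at 214 ± 32.6 CPM in U251T and 8.64 ± 1.31 CPM in U251P. Of 4 genes of the CHI3L1 family and its receptors tested, 3 were lower and none higher, with IL13RA2, a receptor of CHI3L1, at 0 in U251T and 23.0 ± 0.490 CPM in U251P. All 6 MHC class I genes were lower.

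**Figure D2:**
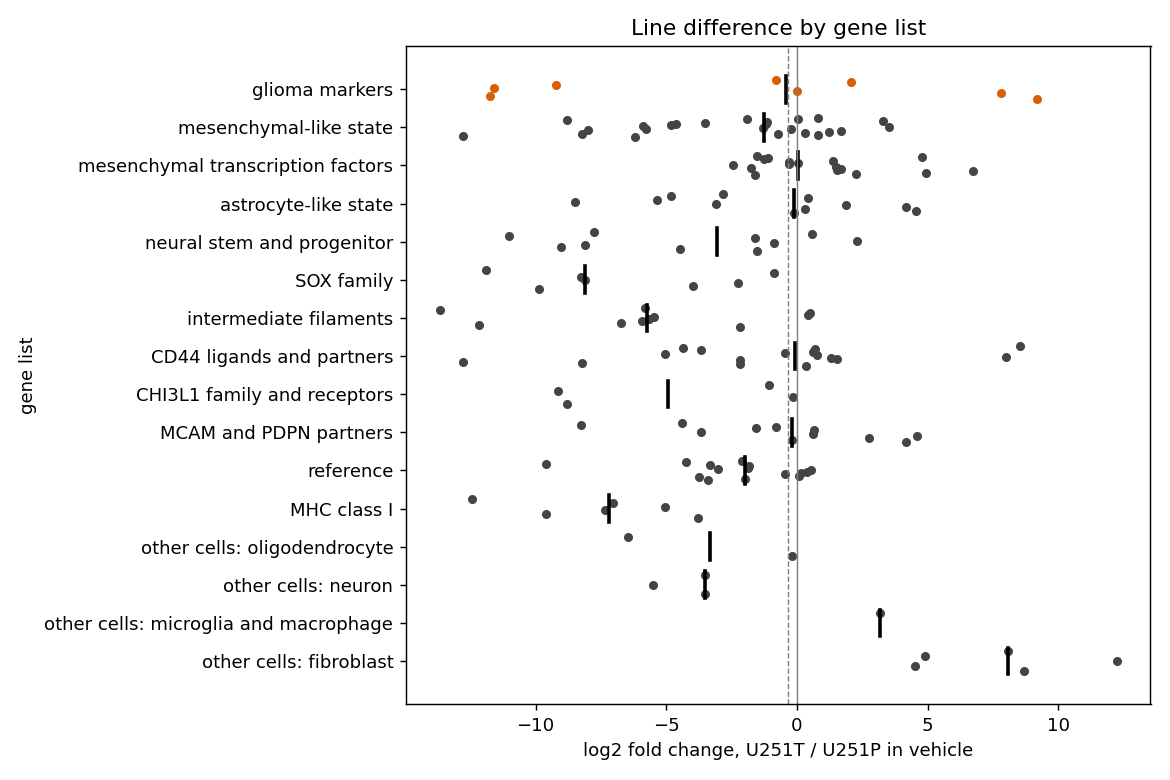
Log2 fold change of U251T against U251P in vehicle for each gene tested, by gene list; each point is a gene, black bars are list medians, the dashed line is the median of all genes (-0.33) and orange points are the glioma markers. The reference genes have a median of -1.99, the SOX and MHC class I genes lie further to the left, and the fibroblast markers lie to the right.

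The next question was whether carmofur changed the markers in U251P. In edgeR's test, 0 of 11426 genes passed an adjusted p of 0.05 (0%), and 0 of the 7 markers tested. At an unadjusted p under 0.05 there were 402 genes, 1 of them a marker, and DESeq2 also called 0. CHI3L1 and GFAP were not tested.

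MCAM was that marker, at 185, 223 and 177 CPM in carmofur against 128, 146 and 146 CPM in vehicle. The carmofur libraries were all above the vehicle libraries. Of all genes tested 8.54% had groups that did not overlap, where chance gives 10%. On the log2 scale this came to 0.51 ± 0.12, at an adjusted p of 0.999 in edgeR. Over the alternatives the adjusted p ranged from 0.0253 to 1, and 1 of them called it. This difference is reported as one that did not pass the correction.

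The other 6 markers had log2 fold changes between -0.05 and 0.13, with overlapping groups. CD44 went from 1011 ± 85.3 CPM in vehicle to 1060 ± 57.6 CPM in carmofur, VIM from 2906 ± 370 to 2814 ± 109, and NES from 408 ± 44.4 to 404 ± 33.9 (SD, n = 3). SOX2 went from 126 ± 31.8 to 136 ± 16.6 CPM, SOX9 from 132 ± 24.8 to 125 ± 13.4 and PDPN from 2.85 ± 0.115 to 2.81 ± 0.262. These differences were smaller than the spread between libraries. A p that misses the threshold does not show that the groups are equal.

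In U251T, 5 markers were tested and 4 passed the threshold, 2 higher and 2 lower in carmofur. Over 7204 genes, 8.88% were higher and 8.2% lower, and 32.3% had groups that did not overlap, where chance gives 10%. NES, SOX2 and MCAM were at or near 0 in both groups and CHI3L1 had no count in either, so none of these 4 was tested.

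VIM was at 13534, 11009 and 13426 CPM in U251T vehicle and 9016, 7046 and 7768 CPM in carmofur. The carmofur libraries were all below the vehicle libraries, and the log2 fold change was -0.67 ± 0.12 (adjusted p = 0.000493, edgeR). It passed the threshold under all 15 alternatives, with values between -0.77 and -0.62.

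GFAP was at 78.4, 54.7 and 83.0 CPM in vehicle and 51.6, 29.7 and 20.9 CPM in carmofur, the last from 8 counts. The groups were apart, although the lowest vehicle and the highest carmofur libraries were close. The log2 fold change was -0.96 ± 0.27 (adjusted p = 0.0216, edgeR). The call was lost without U251T vehicle replicate 1 (adjusted p = 0.0713), without U251T carmofur replicate 2 (0.0691) and without U251T carmofur replicate 3 (0.0802).

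SOX9 was at 144, 119 and 148 CPM in vehicle and 188, 201 and 209 CPM in carmofur. All carmofur libraries were higher, by 0.55 ± 0.15 on the log2 scale (adjusted p = 0.0192, edgeR). It was called under 8 of 15 alternatives, with an adjusted p from 0.000489 to 0.109. Leaving out U251T vehicle replicate 1 or 2, or U251T carmofur replicate 2 or 3, ended the call, with adjusted p = 0.0573, 0.0708, 0.0699 and 0.0589.

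CD44 was at 554, 628 and 578 CPM in vehicle and 805, 723 and 792 CPM in carmofur. The carmofur libraries were all higher, by 0.39 ± 0.13 on the log2 scale (adjusted p = 0.0424, edgeR). It was called under 5 of 15 alternatives, with an adjusted p from 0.000193 to 0.314. Of the 6 fits that left out a library, 1 kept the call, that without U251T vehicle replicate 2.

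PDPN was at 691, 714 and 629 CPM in vehicle and 637, 728 and 657 CPM in carmofur. The groups overlapped, with a log2 fold change of -0.02 ± 0.13 (adjusted p = 0.952, edgeR).

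**Figure D3:**
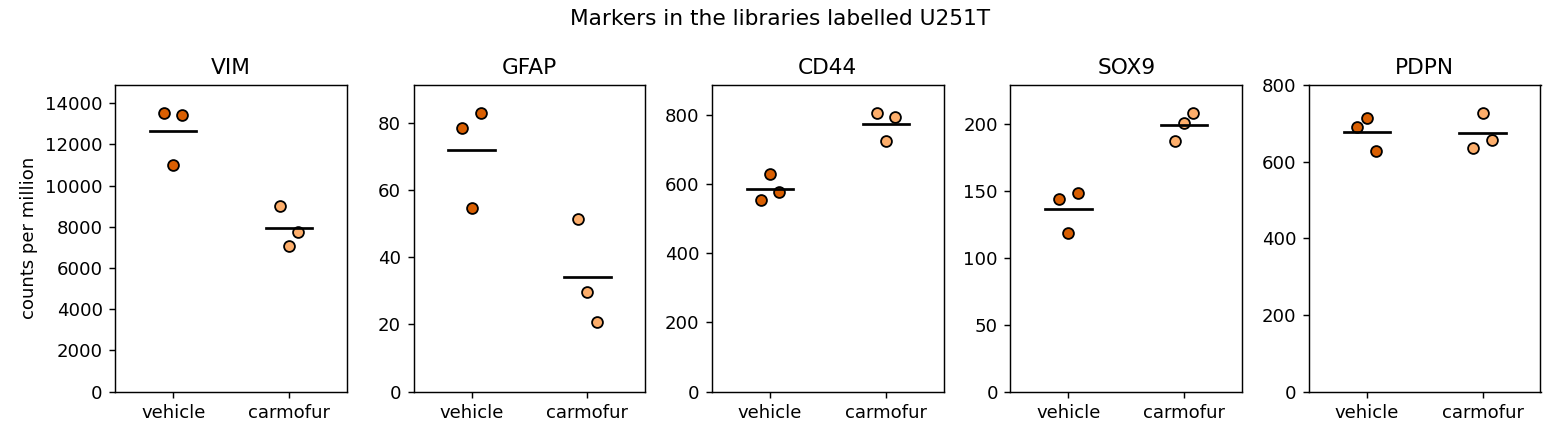
CPM of 5 markers in the libraries labelled U251T, with a point per library, black lines at the group means and axes that start at 0. VIM and GFAP are lower in carmofur, CD44 and SOX9 higher, and PDPN overlaps between the groups.

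Other genes in these lists changed with carmofur in U251T, where 8.88% of all genes tested were higher and 8.2% lower. Of 19 mesenchymal-like genes tested, 6 were higher and 1 lower (median 0.29 against 0.01 over all genes). CCN2, a matricellular protein, was at 3000 ± 534 CPM in carmofur and 1310 ± 414 CPM in vehicle, and S100A6, a calcium-binding protein, at 854 ± 3.61 and 1142 ± 108 CPM. Of 16 mesenchymal transcription factors, 2 were lower, among them TWIST1 at 213 ± 22.4 CPM in carmofur and 310 ± 36.4 CPM in vehicle.

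Of 3 intermediate filament genes tested, LMNB1 and LMNA, the nuclear lamins, were lower and PLEC, a cytolinker, was higher. LMNB1 was at 79.9 ± 8.74 CPM in carmofur and 338 ± 44.3 CPM in vehicle (adjusted p = 1.85e-07, edgeR). Of 12 CD44 ligands and partners, HMMR, a hyaluronan receptor also known as a mitotic spindle protein, was lower, at 56.3 ± 8.19 and 379 ± 31.2 CPM, and MMP2, a matrix protease, was higher, at 131 ± 17.2 and 63.8 ± 19.7 CPM. Of 7 astrocyte-like genes, GJA1 and CLU were higher and NFIB was lower.

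Among 9 partners of MCAM and PDPN, LAMB1, a laminin chain, was higher, as was IL13RA1, the single gene tested of the CHI3L1 family and receptors. None of 5 neural stem and progenitor genes and none of 2 SOX genes tested other than the markers was called. Of 4 fibroblast markers tested, COL1A1 and COL3A1 were higher as well, at 1906 ± 26.6 against 1440 ± 145 CPM and 326 ± 74.7 against 205 ± 18.8 CPM, as was CNP, the single oligodendrocyte marker tested, at 133 ± 42.9 against 60.7 ± 20.3 CPM, and 2 reference genes passed the threshold, among them TUBB, which was lower. Their part in the marker results was not tested.

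**Figure D4:**
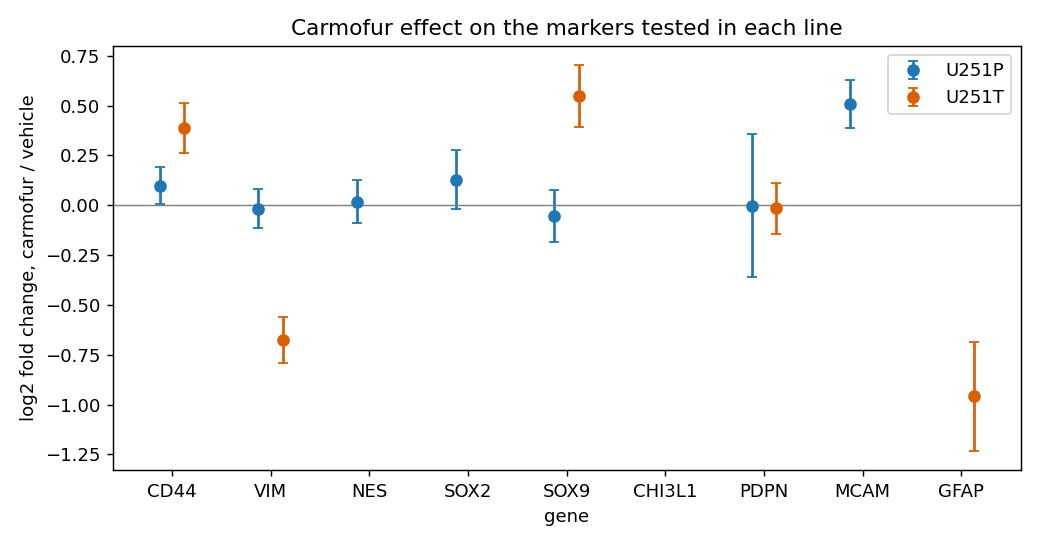
Log2 fold change of carmofur against vehicle for the markers tested in each line, with bars of 1 SE; blue is U251P and orange is U251T. VIM and GFAP lie below 0 in U251T at -0.67 and -0.96, and MCAM lies above 0 in U251P at 0.51 without passing the correction.

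The difference of the carmofur effect between the lines was tested as an interaction over all 12 libraries. None of the 8 markers tested passed the threshold, where 4.28% of 13070 genes did. Of the markers, 2 had an unadjusted p under 0.05 and DESeq2 called 1. NES, SOX2 and MCAM held 0 to 3 counts per group in U251T, and GFAP 0 to 1 in U251P. The test had little power for these markers, so their misses are not read as a lack of difference. VIM came closest, with a difference of -0.71 ± 0.24 on the log2 scale (adjusted p = 0.0938, edgeR), which ranged from 5.24e-05 to 0.241 over the alternatives. VIM was called under 10 of the 20 alternatives that changed the fit, all 8 that kept every library and 2 of the 12 that left one out, and also at a threshold of 0.1 in the main fit, so its result depends on the choices of the analysis. SOX9 differed by 0.54 ± 0.23 (adjusted p = 0.224, edgeR; 0.0557 to 0.505 over the alternatives). For the other markers, an effect called in U251T and not in U251P is therefore not shown to differ between the lines.

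Genes with the most similar levels over the 12 libraries are given as a description. The libraries fall into 2 sets by line, so these correlations of log2 CPM largely follow the line. Pearson's r was 0.995 for VIM with DUTP1, 0.990 for CD44 with CCZ1B, 0.998 for NES with POLR1G and 0.999 for SOX2 with SFRP1. It was 0.943 for SOX9 with RWDD3, 0.999 for MCAM with MOXD1, 0.998 for GFAP with CCT7P2 and 0.9997 for PDPN with ENSG00000227358 and with RPS13P4.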

How the data were processed

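The authors deposited a table of raw counts per Ensembl gene from QuantSeq 3′ libraries, made with a vendor pipeline; the submitters' processing notes name the genome build hg38. Aligner settings, strand use and the handling of reads with several matches are not given in the sources used here. Reads at the 3′ end do not scale with transcript length. No molecular identifiers are stated, so intervals and floors cover counting error only.

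Symbols were matched by Ensembl identifier, and positions taken from GENCODE 29. Counts were tested in edgeR 4.0.16 (R 4.3.3) with filterByExpr, TMM scaling on library totals, the quasi-likelihood test and Benjamini-Hochberg adjustment over all genes tested, at 0.05. SE is the absolute log2 fold change divided by the square root of F. DESeq2 1.42.0, other scalings, filters, a replicate block, a fit of all 12 libraries and leaving out each library were alternatives. A gene at 0 in a group was given a floor of 3 counts over the group. The fit of carmofur against vehicle in U251P was tested on simulated data, and the other fits were not. Replicate pairs differed beyond sampling noise, by a chi-square per degree of freedom of 1.72 to 11.5.

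Named genes were the 9 markers, those of each list with the largest called changes and non-overlapping groups, the most abundant of each list, and for likeness the genes with the highest Pearson's r (prior count 2); a selection is printed. The markers and lists were chosen with earlier results of these data known. Single values of some genes in the other lists are not reported here; they remain in the list counts and medians.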

Additional observations from a re-analysis of the deposited data

How the results depend on the processing

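The log2 fold changes between the lines kept their direction under every alternative tried for VIM, CD44, NES, SOX2, PDPN, MCAM and GFAP. Each stayed past the threshold wherever it was tested. NES, SOX2, MCAM and GFAP passed the filter only through the line where they were high, so for them this was fixed in advance. In the main fits PDPN too passed it only through U251T, so its direction there was also fixed in advance. Relative to the median of all genes, CD44 was higher in U251T in vehicle with no filter on low counts. In carmofur it was so without U251T carmofur replicate 1 or 2. With at least 10 counts in every library, fewer genes were tested and the calls fell to 3 of 3 markers tested and 3737 genes in vehicle, and to 3 of 4 markers tested and 3348 genes in carmofur. SOX9 was near 0 in vehicle in the main fit, was called lower with no filter on low counts (-0.37) and with at least 10 counts in every library (-0.65), and changed sign elsewhere: 0.031 with total counts only, 0.0094 with the replicate block, and -0.21 to 0.053 when a library was left out. In carmofur SOX9 was -0.25 with at least 10 counts in every library. In the other gene lists no gene past the threshold changed sign under another scaling, in vehicle, in carmofur or with carmofur in U251T; the median of the mesenchymal transcription factors in vehicle went from 0.05 to -0.02 with upper-quartile and to -0.07 with RLE scaling, and that of the partners of MCAM and PDPN in carmofur from -0.09 to 0.17 with total counts only. Depth limits SOX2, NES, MCAM and GFAP, whose low groups hold 0 to 3 counts.

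Carmofur in U251P called 1 marker and 19 genes with no filter on low counts, 1 gene with the replicate block, and 0 to 1 gene when a library was left out. Uncalled markers near 0 changed sign. PDPN was 0.0058 with DESeq2, 0.00081 with upper-quartile scaling, 0.0014 with RLE scaling, 0.0057 with DESeq2 without the filter, and -0.082 to 0.10 without a library. NES was -0.013 with total counts only and -0.072 to 0.096 without a library. Without a library VIM ranged from -0.093 to 0.060, SOX2 from -0.028 to 0.32 and SOX9 from -0.19 to 0.069.

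Carmofur in U251T called 2 markers in place of 4 with no filter, with at least 10 counts in every library, with all 12 libraries in 1 fit, and with DESeq2 without the filter, an alternative chosen after seeing the data. With at least 10 counts GFAP was not tested and CD44 lost its call. In the other 3 CD44 and SOX9 lost theirs and GFAP kept its own. CD44 was called under 5 of 15 alternatives, 1 of them without a library, so a further fit of every library lost its call. Without a library carmofur in U251T called 1 to 3 markers, and PDPN ranged from -0.11 to 0.043. The replicate block raised the genes called from 1231 to 2079. Whether same-numbered libraries pair was not settled. Their deviations from the group means correlated at 0.21, -0.03 and 0.27 in U251P and 0.08, 0.34 and 0.08 in U251T. Libraries of unlike number correlated at -0.29 to 0.09 in U251P and -0.19 to 0.11 in U251T. Not every library correlated best with its own number. The main fits used no replicate block.

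For the difference of the carmofur effect between the lines, 1 marker, VIM, was called with DESeq2 (with and without the filter), upper-quartile scaling, RLE scaling, total counts only, the replicate block, no filter, an adjusted p under 0.1 and a minimum of 10 counts per library. Without a library 0 to 1 marker and 366 to 719 genes were called. PDPN was 0.0085 with DESeq2, 0.0084 with RLE scaling, 0.020 with total counts only, 0.0099 with DESeq2 without the filter, and -0.21 to 0.028 without a library. Without a library GFAP ranged from -0.998 to 0.936 and MCAM from -0.51 to 3.59. With at least 10 counts in every library CD44 was -1.38 and VIM 0.57 between the lines in carmofur. The cause of these changes was not tested.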
